A study of Mus musculus with 50 samples.

Results

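Of the 5404 SUZ12 peaks listed in wild-type (WT) mouse embryonic stem cells (ESCs), 1375 were overlapped by at least 1 bp by a SUZ12 peak of *Ezh2* Y726D ESCs and by no SUZ12 peak of *Ezh2* KO or *Ezh1/2* dKO ESCs. At these 1375 regions, named inactive-EZH2 peaks here, SUZ12 was listed when a catalytically inactive EZH2 was present and not when EZH2 protein was absent. They were chosen by the measured SUZ12 peak lists of these 4 lines, so the SUZ12 values of those lines are given as a description. They made up 25.4% of the WT list (Wilson 95% confidence interval 24.3 to 26.6) and 56.1% of the 2452 WT peaks that had a *Ezh2* Y726D SUZ12 peak. Of the other WT peaks, 1052 had a SUZ12 peak in both *Ezh2* KO and *Ezh2* Y726D ESCs (shared peaks), 2735 had none in any of the 3 lines (lost peaks), 217 had one in *Ezh2* KO but not *Ezh2* Y726D ESCs, and 25 had one in *Ezh1/2* dKO but not *Ezh2* KO ESCs.

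The study asked whether PRC2 needs its enzymatic activity to stay on chromatin. All lines were derived by CRISPR/Cas9 from the ESC line E14TG2a (WT) and the edited lines were picked as clones, so a difference between lines cannot be told apart from a difference between clones. *Ezh2* KO cells lack the *Ezh2* gene and keep *Ezh1*, and *Ezh1/2* dKO cells lack both genes. *Ezh2* Y726D and *Ezh2* R685C cells carry point mutations of EZH2, introduced by editing in *Ezh1* KO cells, so neither has EZH1. HA-tagged human EZH1 was put back into *Ezh1/2* dKO cells by plasmid transfection, and the cells were collected after a short puromycin selection. The labels of the *Ezh2* Y726D SUZ12 and H3K27me3 samples do not name the *Ezh1* deletion, and these samples were taken as the same line. Each ChIP-seq and ATAC-seq list came from 1 library per line and target, so no replicate error exists for the peak data and no test between lines or peak classes was made. Confidence intervals of shares cover counting error only, and neighbouring peaks are not independent. The RNA-seq tables held 2 libraries for each of 4 lines, 3604123 to 5181553 reads per library.

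PRC2 is the Polycomb complex that methylates lysine 27 of histone H3. Its catalytic subunit is EZH2 or the paralog EZH1, while SUZ12 and EED form the core that holds the enzyme, so a SUZ12 peak marks the complex whichever enzyme it carries. In ESCs, PRC2 sits mainly at CpG islands of silent developmental genes, where H3K27me3 goes with repression and H3K27ac, which occupies the same residue, goes with active promoters and enhancers.

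The SUZ12 summits of the inactive-EZH2 peaks were rich in CG dinucleotides, and 8 are shown to let this composition be seen. They are the strongest members by WT SUZ12 (the first 6) and by *Ezh2* Y726D SUZ12 (the last 2) whose 200 bases around the WT summit touch no annotated UTR. Sequences are from the plus strand of mm9, with every CG in capitals.

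Hoxc9, chr15:102812337-102812536: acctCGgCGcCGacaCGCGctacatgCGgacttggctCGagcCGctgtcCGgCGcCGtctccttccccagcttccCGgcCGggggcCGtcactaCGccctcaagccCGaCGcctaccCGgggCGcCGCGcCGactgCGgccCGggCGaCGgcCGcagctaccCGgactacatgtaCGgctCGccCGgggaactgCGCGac

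Tfap2a (Tcfap2a in the annotation), chr13:40826943-40827142: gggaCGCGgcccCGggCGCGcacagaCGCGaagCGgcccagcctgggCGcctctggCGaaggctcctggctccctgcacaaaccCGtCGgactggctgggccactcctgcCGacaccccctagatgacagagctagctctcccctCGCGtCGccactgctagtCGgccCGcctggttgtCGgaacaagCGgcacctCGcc

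E330016A19Rik, chr9:78290398-78290597: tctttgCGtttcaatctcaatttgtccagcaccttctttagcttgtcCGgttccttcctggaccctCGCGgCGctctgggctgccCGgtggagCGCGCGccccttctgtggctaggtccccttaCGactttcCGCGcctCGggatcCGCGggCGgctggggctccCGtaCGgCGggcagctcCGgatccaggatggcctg

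Pknox2, chr9:36954053-36954252: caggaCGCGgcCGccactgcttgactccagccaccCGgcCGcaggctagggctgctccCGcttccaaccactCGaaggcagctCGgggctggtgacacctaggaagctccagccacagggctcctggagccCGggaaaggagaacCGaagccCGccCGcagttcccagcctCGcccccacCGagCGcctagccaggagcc

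Hoxd3, chr2:74590978-74591177: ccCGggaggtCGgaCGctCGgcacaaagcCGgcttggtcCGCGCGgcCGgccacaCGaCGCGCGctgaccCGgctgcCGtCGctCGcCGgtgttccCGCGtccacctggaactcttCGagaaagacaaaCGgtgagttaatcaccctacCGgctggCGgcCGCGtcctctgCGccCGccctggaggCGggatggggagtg

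Sfrp5, chr19:42276083-42276282: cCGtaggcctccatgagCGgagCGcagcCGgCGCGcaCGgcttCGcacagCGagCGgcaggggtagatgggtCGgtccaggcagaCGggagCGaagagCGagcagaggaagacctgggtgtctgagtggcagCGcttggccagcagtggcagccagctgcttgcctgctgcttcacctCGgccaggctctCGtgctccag

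Gm10272, chr10:77140399-77140598: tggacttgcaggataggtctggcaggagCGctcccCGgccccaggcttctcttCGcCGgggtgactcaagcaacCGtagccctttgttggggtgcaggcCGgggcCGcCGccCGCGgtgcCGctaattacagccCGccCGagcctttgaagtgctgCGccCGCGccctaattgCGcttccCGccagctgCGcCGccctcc

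Gm1979, chr5:26333479-26333678: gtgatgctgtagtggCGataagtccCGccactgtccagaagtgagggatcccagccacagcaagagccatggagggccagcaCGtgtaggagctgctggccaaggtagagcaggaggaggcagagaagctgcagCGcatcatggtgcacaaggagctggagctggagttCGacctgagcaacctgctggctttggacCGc

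The *Hoxc9* window touches coding sequence and held 33 CG dinucleotides with a GC content of 75%. Those of *E330016A19Rik* and *Sfrp5* also touch coding sequence, and held 20 and 17. The windows at *Tfap2a* (21), *Pknox2* (15), *Hoxd3* (29) and *Gm10272* (20) touch no annotated coding sequence. The *Gm1979* window, with 6 CG dinucleotides and a GC content of 60.5%, was the poorest of the 8 although its *Ezh2* Y726D SUZ12 peak was among the strongest.

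Over all 1375 inactive-EZH2 peaks, the 300 bp around the WT summit held a median of 25 CG dinucleotides (interquartile range 19 to 31), against 28 at shared peaks, 19 at lost peaks and 11 around the start sites of protein-coding genes. The observed over expected ratio of CG was 0.778, 0.828, 0.680 and 0.520 in the same order, and GC content was 66.7%, 67.3%, 62.3% and 57.3%. The difference from lost peaks was present at every WT peak strength. When WT peaks were divided into 5 groups of rising SUZ12 strength, the median CG number of inactive-EZH2 peaks was 23, 24, 25, 26 and 28, and that of lost peaks 16, 19, 21, 22 and 24. In the strongest group the inactive-EZH2 peaks and the shared peaks both had a median of 28.

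The 4 letters CGCG, which read the same on both strands and overlap the CG count, occurred in 88.1% of the 300 bp windows (95% interval 86.3 to 89.7), in 91.2% of shared peaks, 71.0% of lost peaks, 79.4% of all WT SUZ12 peaks and 46.9% of start-site windows. GAGAGA, counted with TCTCTC, occurred in 17.3% (15.4 to 19.4), against 18% of shared peaks, 22.5% of lost peaks and 23.8% of start-site windows. CACACA, counted with TGTGTG, occurred in 14.1%, 11.1%, 19.0% and 19.8%. These are counts of letters in a window and not binding sites.

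The inactive-EZH2 peaks were of intermediate strength in WT, again as a description. The listed value is the -log10 p of the peak caller, which is set within each library and rises with sequencing depth. Its WT median was 26.2 (interquartile range 17.6 to 39.0) at inactive-EZH2 peaks, 74.9 at shared peaks and 15.6 at lost peaks, and their median width was 976, 2034 and 561 bp. Their share was 14.7%, 22.7%, 35.9%, 42.4% and 11.7% of the WT peaks over the 5 groups in order of rising strength, highest in the fourth. In the strongest group 828 of 1073 peaks were shared peaks and 126 were inactive-EZH2 peaks.

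**Figure D1:**
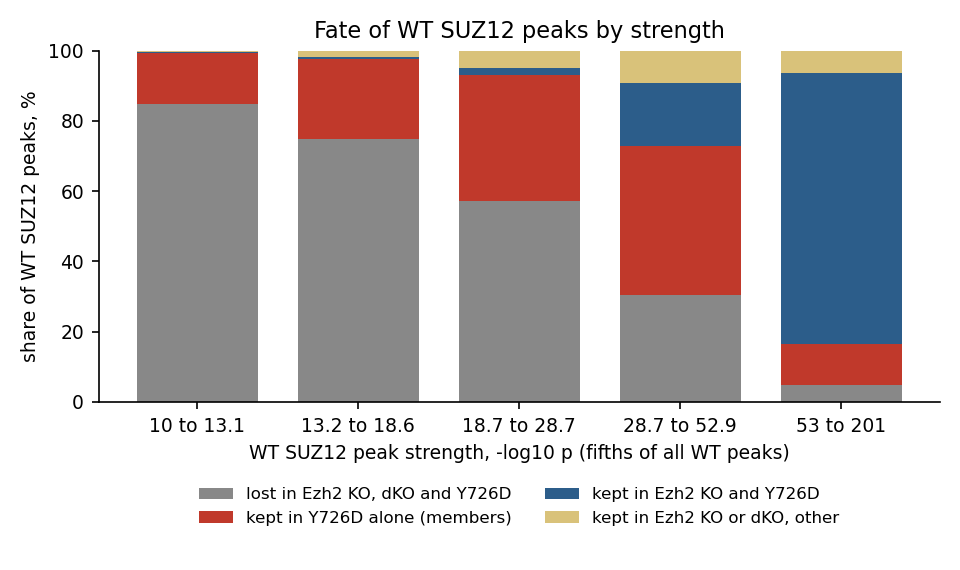
Stacked bars give the share (%) of the 5404 WT SUZ12 peaks in each class for 5 groups of WT SUZ12 strength (-log10 p), from weakest to strongest. Inactive-EZH2 peaks (red) rise from 14.7% to 42.4% in the fourth group and fall to 11.7% in the strongest, where shared peaks (blue) prevail.

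In *Ezh2* Y726D ESCs the SUZ12 peaks at the 1375 regions had a median -log10 p of 13.6 and a median fold enrichment of 6.42, against 19.7 and 7.88 at the shared peaks. They covered a median of 59.5% of the WT peak (interquartile range 40.0 to 77.0), and 840 of the 1375 WT peaks were covered over at least 50% of their length. The lists differ in length, with 3366 SUZ12 peaks in *Ezh2* Y726D, 1578 in *Ezh2* KO and 317 in *Ezh1/2* dKO ESCs, and a weaker ChIP cannot be told apart from less SUZ12 on chromatin. With the *Ezh2* Y726D list limited to its strongest peaks, as many as in the *Ezh2* KO list, 554 regions remained members.

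The members with the smallest overlap in bp were short peaks. The smallest overlaps with a *Ezh2* Y726D peak were 1 bp at *Ror2*, a Wnt receptor kinase, 21 bp at *Itga11*, an integrin, and 23 bp at *St8sia4*, a sialyltransferase. Of the WT peaks with a *Ezh2* Y726D peak that the rule left out, those at *Speg*, *Gm17379* and *Gm9885* had the smallest overlap with a peak of *Ezh2* KO or *Ezh1/2* dKO ESCs, between 78 and 208 bp. Only 38 of the 1375 regions (2.76%) had an *Ezh2* KO SUZ12 peak within 1 kb and 97 (7.05%) within 5 kb, so most did not flank a peak kept in *Ezh2* KO ESCs.

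Most inactive-EZH2 peaks lay at promoters. A transcription start site was within 5 kb of 84.9% (82.9 to 86.7), against 91.7% of shared peaks and 83.5% of lost peaks. It lay inside the peak in 51.8% (49.1 to 54.4), against 68.3% and 30.1%. The WT summit fell in an exon in 50.3%, in an intron in 30.3% and outside annotated genes in 19.5%.

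The 10 members with the strongest WT SUZ12 peaks are named by the gene with the nearest start site, which lay within 5 kb of the summit for 9 of them. Their WT -log10 p ran from 90.6 to 143 and their *Ezh2* Y726D value from 11.7 to 29.9, with medians of 105 and 15.1. *Hoxc9*, a homeodomain factor of trunk patterning, led with 143 in WT and 11.7 in *Ezh2* Y726D ESCs. It was followed by *Tfap2a*, the AP-2 factor of neural crest and surface ectoderm, with 127 and 11.7. The others were *E330016A19Rik*, the TALE homeodomain gene *Pknox2*, the zinc-finger factor *Gata3*, the AP-1 gene *Fosl2*, the architectural chromatin gene *Hmga2*, *Hoxd3*, the ligand *Fgf3* and the secreted Wnt antagonist *Sfrp5*. All 10 had a WT H3K27me3 peak, an HA-EZH1 peak and a *Ezh2* Y726D H3K27ac peak, and 9 had an *Ezh2* KO H3K27me3 peak, *Hmga2* being the exception. R685C SUZ12 was listed at 8, not at *Fosl2* and *Hmga2*. Some of these long peaks were covered little by *Ezh2* Y726D SUZ12, with 267 of 3171 bp at *Hoxc9*, 296 of 3487 bp at *Hmga2* and 304 of 4096 bp at *Tfap2a*. The most bases covered were 1427 of 1924 bp at *Sfrp5*.

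The 10 members with the strongest *Ezh2* Y726D SUZ12 peaks were mostly other regions, with only *Hoxd3* in both lists. Their *Ezh2* Y726D -log10 p ran from 28.7 to 48.9 and their WT value from 41.6 to 96.7. *Gm10272* was highest, with 48.9 in *Ezh2* Y726D and 61.2 in WT ESCs, and its summit lay outside annotated genes. Receptor and transport genes were among the rest: *Kiss1r*, the kisspeptin receptor, with 37.3 and 41.6, the chemokine receptor gene *Ccr9* with 36.0 and 72.6, the organic cation transporter gene *Slc22a3* with 29.9 and 43.9, and *Crhr2*, a receptor of the corticotropin-releasing hormone family, with 28.7 and 50.2. *Gm1979*, *Hoxc4*, *Gnal* and *Hpse2* complete the list, and the region named for *Hoxc4* lay 51645 bp from its start site, outside the Hoxc cluster. All 10 had R685C SUZ12 and H3K27me3 in WT and *Ezh2* KO ESCs, while 4 had *Ezh2* Y726D H3K27ac and 1 had *Ezh1/2* dKO H3K27ac.

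SUZ12 in the *Ezh2* R685C line was not used by the rule, and it was listed at 767 of the 1375 regions (55.8%, 53.1 to 58.4), close to the 52.4% of all WT SUZ12 peaks. The share was 95.2% (93.7 to 96.3) at shared peaks and 31.5% (29.8 to 33.2) at lost peaks, so the intervals of the 3 classes did not overlap. At inactive-EZH2 peaks it rose with WT strength, 17.6%, 32.9%, 51.8%, 76.9% and 84.9% over the 5 groups. Against lost peaks of the same group it was 17.6% and 21.9% in the weakest, with overlapping intervals, and 76.9% (72.8 to 80.5) and 58.4% (53.0 to 63.6) in the fourth. It also rose with the strength of the *Ezh2* Y726D peak, from 44.0% in the weakest 277 members to 72.0% in the strongest 250, whose median WT -log10 p was 21.5 and 32.3. Where listed, R685C SUZ12 peaks had a median -log10 p of 17.6 at inactive-EZH2 peaks, 47.6 at shared peaks and 16.6 at lost peaks.

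H3K27me3 was listed at most inactive-EZH2 peaks in lines with an active enzyme. A peak was present at 81.7% in WT (79.5 to 83.6), 82.0% in *Ezh2* KO (79.8 to 83.9) and 92.2% in *Ezh2* R685C ESCs (90.7 to 93.5). These shares were near those of all WT SUZ12 peaks, 79.3%, 80.1% and 89.3%, and between those of lost peaks (70.6%, 69.9% and 82.9%) and shared peaks (97.1%, 100% and 99.9%). It was present at 2 of 1375 (0.145%) in *Ezh2* Y726D ESCs, whose list held 3862 peaks, and at 3 of 1375 (0.218%) in *Ezh1/2* dKO ESCs. In *Ezh2* KO ESCs, where no SUZ12 peak was listed here by the rule, 1127 regions therefore still had an H3K27me3 peak, 1007 of them (73.2%) with one in WT too. Its median -log10 p in *Ezh2* KO ESCs was 67.8, against 338 at shared peaks and 69.9 at lost peaks. The interval of the share in *Ezh2* KO ESCs was 68.2 to 71.6 for lost peaks and 99.6 to 100 for shared peaks.

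In *Ezh2* R685C ESCs, 763 regions had both SUZ12 and H3K27me3, 505 (36.7%) had H3K27me3 without SUZ12, 4 had SUZ12 alone and 103 had neither. H3K27me3 was therefore more widely listed than SUZ12 at these regions in *Ezh2* R685C ESCs. In *Ezh2* KO ESCs the rule left out every region with a SUZ12 peak, so the same comparison was fixed in advance there. The number of peaks was 22245 for H3K27me3 and 3231 for SUZ12 in the *Ezh2* R685C lists, and 8956 and 1578 in the *Ezh2* KO lists, and whether this difference in list length accounts for the pattern was not tested.

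HA-tagged EZH1 put back into *Ezh1/2* dKO cells was listed at 780 of the inactive-EZH2 peaks (56.7%, 54.1 to 59.3), although none had a SUZ12 peak in *Ezh2* KO ESCs, which have EZH1 alone. The share over all WT SUZ12 peaks was 51.8%. With every list that gives a p limited to 1e-20, the rule gave 256 regions, some of them outside the 1375. HA-EZH1 was listed at 92.6% of these 256, and no share over all WT peaks was taken at that limit. In *Ezh1/2* dKO cells without the tagged protein the HA antibody gave a peak at 21 of 1375 (1.53%). HA-EZH1 was listed at 99.1% of shared peaks and 27.3% of lost peaks, and within inactive-EZH2 peaks at 14.5%, 30.2%, 49.5%, 82.1% and 92.9% from the weakest to the strongest WT group. In the strongest group lost peaks reached 92.2% (81.5 to 96.9), so the intervals of these classes overlapped there. HA-EZH1 and *Ezh2* KO H3K27me3 were both listed at 739 regions, HA-EZH1 alone at 41, H3K27me3 alone at 388 and neither at 207. R685C SUZ12 was listed at 74.4% (71.2 to 77.3) of the members with HA-EZH1 and 31.4% (27.8 to 35.3) of those without. The HA lists give positions only, and the level of the tagged protein relative to endogenous EZH1 was not known.

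**Figure D2:**
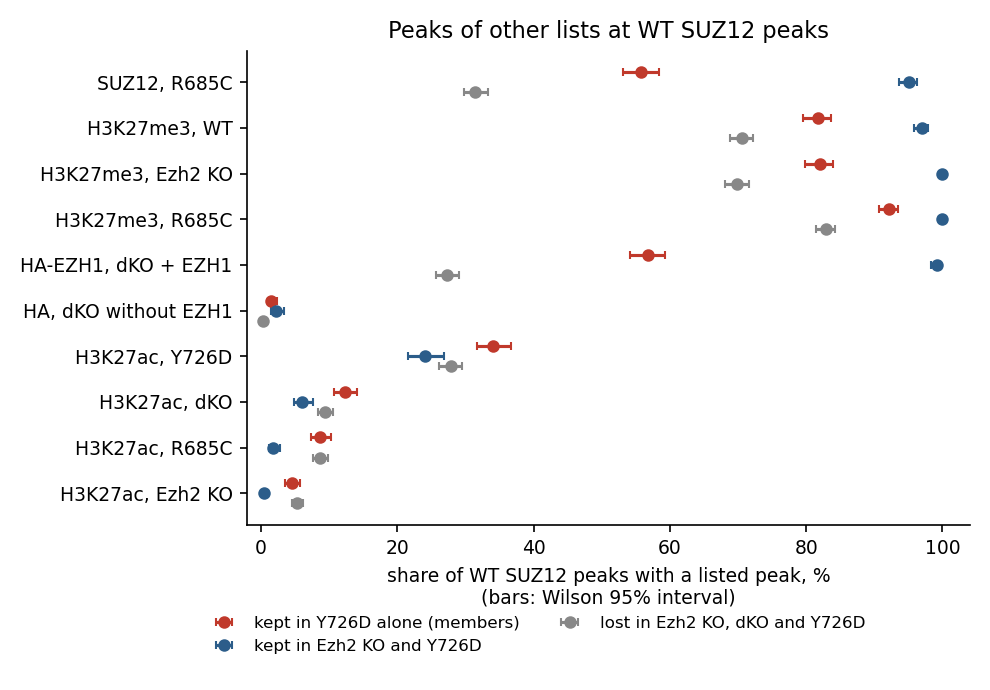
Points give the share (%) of inactive-EZH2 (red), shared (blue) and lost (grey) WT SUZ12 peaks with a peak of each other list, and bars give Wilson 95% intervals. Inactive-EZH2 peaks lie between the other classes for R685C SUZ12 (55.8%) and HA-EZH1 (56.7%) and are highest for *Ezh2* Y726D H3K27ac (34.1%).

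**Figure D3:**
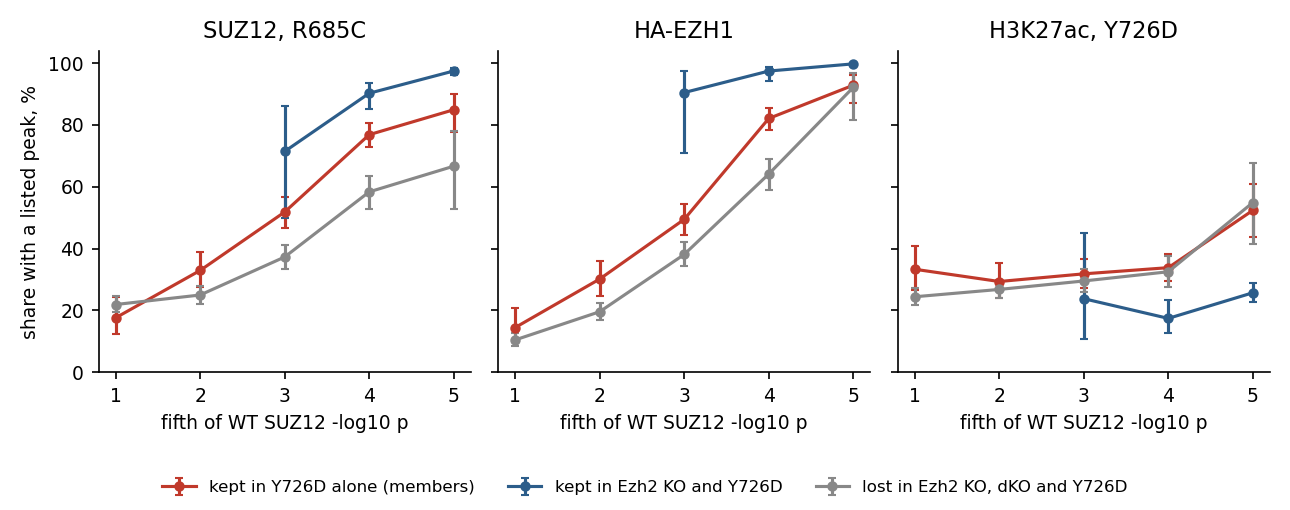
Shares (%) of R685C SUZ12, HA-EZH1 and *Ezh2* Y726D H3K27ac peaks are plotted over 5 groups of rising WT SUZ12 strength, for classes with at least 20 peaks in a group, with Wilson 95% intervals. For inactive-EZH2 peaks the first 2 rise steadily, to 84.9% and 92.9%, and H3K27ac stays near 30% and reaches 52.4% in the strongest group.

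H3K27ac was listed at 469 inactive-EZH2 peaks in *Ezh2* Y726D ESCs (34.1%, 31.7 to 36.7), against 24.1% (21.7 to 26.8) of shared peaks and 27.8% (26.2 to 29.5) of lost peaks. Over all WT SUZ12 peaks the share was 28.3%. The same regions had H3K27ac at 12.3% in *Ezh1/2* dKO ESCs, where 9.36% of lost peaks and 9.23% of all WT SUZ12 peaks had it. In *Ezh2* R685C ESCs the share was 8.65%, against 8.70% of lost peaks and 7.01% of all. In *Ezh2* KO ESCs it was 4.51%, against 5.30% and 3.96%. Members were thus not above lost peaks in *Ezh2* R685C and *Ezh2* KO ESCs. In *Ezh1/2* dKO ESCs the interval of members (10.7 to 14.1) lay above that of lost peaks (8.32 to 10.5). Within each of the 5 strength groups these *Ezh1/2* dKO intervals overlapped. The *Ezh2* R685C list held 41185 peaks, the *Ezh2* Y726D list 40829, the *Ezh2* KO list 25483 and the *Ezh1/2* dKO list 17618, and the part of list length in the order of the lines was not tested. In *Ezh2* Y726D ESCs the share in the strongest WT group was 52.4% (43.7 to 60.9), 25.7% (22.9 to 28.8) at shared peaks and 54.9% (41.4 to 67.7) at lost peaks. The intervals of members and lost peaks overlapped in each of the 5 groups, and at the 126 strongest members, 66 of which had the mark, the share was above that of the shared peaks. With every list limited to peaks with p of at most 1e-20, 256 regions were members, of which 6.64% had *Ezh2* Y726D and 1.17% *Ezh1/2* dKO H3K27ac. With 50% of the member covered, the shares were 20.9% and 6.47%. WT H3K27ac was not analysed here, so no gain of the mark over WT can be stated.

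Combining the 4 mutant lines, 876 regions (63.7%) had no H3K27ac peak in any, 281 (20.4%) had one in *Ezh2* Y726D ESCs alone, 103 (7.49%) in *Ezh2* Y726D and *Ezh1/2* dKO but not *Ezh2* KO ESCs, and 46 (3.35%) in all 4. The 252 members without a WT H3K27me3 peak carried *Ezh2* Y726D H3K27ac more often (45.2%, 39.2 to 51.4) than the 1123 with one (31.6%, 29.0 to 34.4). In *Ezh2* R685C ESCs the shares were 23.8% (19.0 to 29.4) and 5.25% (4.09 to 6.72).

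Broad lists of the lower methylation states were compared on the 9 chromosomes present in all of them, which hold 688 inactive-EZH2 peaks. H3K27me2 regions covered 97.8% of the bases of these peaks in *Ezh2* KO, 3.38% in WT, 25.4% in *Ezh2* Y726D and 9.05% in *Ezh1/2* dKO ESCs. Shared and lost peaks were covered alike in *Ezh2* KO ESCs (95.2% and 93.2%). For H3K27me1 the cover was 0.163% with WT enzymes, 16.6% without *Ezh2*, 16.6% without either gene and 47.7% in *Ezh2* Y726D ESCs, the last with a median -log10 p of only 1.42, whereas *Ezh2* KO H3K27me2 reached 5.40. All these H3K27me1 and H3K27me2 medians in members other than that of *Ezh2* KO H3K27me2 and WT H3K27me1 lay between 1.31 and 1.55, so the cover in each of these lists, *Ezh2* KO H3K27me1 included, rests on weakly supported regions. ATAC-seq regions, a measure of open chromatin, touched 98.3% to 98.7% of the inactive-EZH2 peaks in the 4 lines, with the highest region in each peak at a median -log10 p of 1.70 to 1.84, close to the 1.72 to 1.79 of shared peaks and as weakly supported.

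The 4 *Hox* clusters differed in this set. The Hoxc cluster had 32 WT SUZ12 peaks, of which 4 were inactive-EZH2 peaks (at *Hoxc12*, *Hoxc9*, *Hoxc6* and *Hoxc5*), 28 were lost and none had an *Ezh2* KO SUZ12 peak. Hoxa, Hoxb and Hoxd had 30, 34 and 29 WT peaks, with 1, 1 and 2 inactive-EZH2 peaks and 16, 12 and 16 peaks kept in *Ezh2* KO ESCs. *Ezh2* KO H3K27me3 was listed at 9 of the 32 Hoxc peaks, and at 30, 28 and 29 of the Hoxa, Hoxb and Hoxd peaks, while *Ezh2* Y726D H3K27ac was listed at 23, 19, 5 and 16 in the order Hoxc, Hoxa, Hoxb and Hoxd. The clusters were compared after their values were seen, and no test was made.

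Protein-coding genes with a start site within 5 kb of an inactive-EZH2 peak, and of no peak kept in *Ezh2* KO or *Ezh1/2* dKO ESCs, numbered 1043 of the 3212 genes near any WT SUZ12 peak (32.5%). A further 103 genes were near both kinds of peak and were counted with the 957 near kept peaks (29.8%), and 1212 were near lost peaks alone. Transcription factor families were mostly near kept peaks: 6 of 39 *Hox* genes (15.4%), 17 of 110 other homeobox and Pax genes (15.5%), 6 of 25 forkhead, 7 of 27 Sox and T-box and 7 of 27 tissue bHLH genes were near inactive-EZH2 peaks, and 26, 84, 17, 17 and 16 near kept peaks. Shares of signalling and neural lists lay on both sides of the 32.5% of all genes near a WT peak, with no test. The counts were 13 of 35 Wnt pathway (37.1%), 4 of 20 FGF pathway (20%), 8 of 30 BMP and TGF-beta pathway (26.7%), 12 of 45 axon guidance (26.7%), 26 of 74 ion channel (35.1%), 18 of 55 neurotransmitter receptor (32.7%) and 6 of 17 collagen and laminin genes, and 1 each of 12 GATA and Zic-type, 6 Hedgehog pathway and 7 PRC1 genes. Of the PRC2 subunit genes only *Phf19*, which encodes a Polycomb-like accessory subunit, was near a WT SUZ12 peak, and that peak was an inactive-EZH2 peak with a -log10 p of 48.9 in WT and 19.1 in *Ezh2* Y726D ESCs. Only 1 of 80 ribosomal protein genes was near a WT SUZ12 peak, a lost one, so none was near an inactive-EZH2 peak.

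Among the strongest members of these lists were *Otp* (WT -log10 p 81.8) and *Otx2* (74.1), homeobox genes of hypothalamus and forebrain, *Foxd3* (77.7), *Hoxc12* (81.4), and the neural tube bHLH gene *Olig3* (74.1). All 5 had WT H3K27me3 and *Ezh2* Y726D H3K27ac, and all but *Foxd3* had HA-EZH1 and R685C SUZ12. The potassium channel genes *Kcna6* (72.7) and *Kcnk6* (61.5), and the glutamate receptor genes *Grin2b* (52.9) and *Grm7* (50.2), had WT and *Ezh2* KO H3K27me3, HA-EZH1 and R685C SUZ12 but no *Ezh2* Y726D H3K27ac. *Zic2* was among the weaker ones, with 14.6 in WT and 17.6 in *Ezh2* Y726D ESCs, and had H3K27ac there without H3K27me3 in WT.

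RNA levels were low near inactive-EZH2 peaks. Of the 1043 genes 934 were matched to the RNA table, and their median level per kb of exon was 2.13 normalized counts in the first WT library and 2.28 in the second, against 0.579 and 0.659 near kept peaks, 4.74 and 4.15 near lost peaks and 20.9 and 23.2 over all matched genes. A mean normalized count of at least 5 over the 8 libraries was reached by 647, and 287 were left out. A gene silent in WT passed only if it was present in a mutant, so counts among the 647 are given as a description. RNA is from bulk cells, in which fewer cells expressing a gene and less RNA per cell cannot be told apart. The study states biological replicates in general terms, and the labels do not say what separates the 2 RNA libraries of a line, so p-values measure only the spread between these samples.

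The transcripts of the targeted genes were checked first. *Ezh2* was at 598 and 546 normalized counts in WT, 1.05 and 0.968 in *Ezh2* KO, 0.824 and 1.78 in *Ezh1/2* dKO and 422 and 613 in *Ezh2* Y726D ESCs. *Ezh1* was at 227 and 377 in WT, 372 and 378 in *Ezh2* KO, 14 and 20.4 in *Ezh1/2* dKO and 24.1 and 15.7 in *Ezh2* Y726D ESCs, so *Ezh1* was low in the latter line too. *Suz12* and *Eed* RNA did not pass the test in any line. RNA does not give the protein level: by western blot, the paper reports SUZ12 protein as destabilized without EZH2 but not in *Ezh2* Y726D ESCs. Of 7 ESC markers none passed, with a summed level of 11235 to 13883 in all 8 libraries.

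In *Ezh1/2* dKO against WT, 84 of the 647 genes rose (13%, 10.6 to 15.8), where 3.63% of all 13872 genes tested rose and 4.02% passed in either direction. Here and below a gene passed at an adjusted p under 0.1 by limma and a change of at least 1 on the log2 scale. With quantile normalization 43 rose and 5 fell, and the median log2 fold change of the 647 was 0.28. None fell by limma on the deposited scale, against 0.389% of all genes, while 15 were lower at an unadjusted p under 0.05, and edgeR and DESeq2 each called 1. The median log2 fold change was 0.70 near inactive-EZH2 peaks, 0.93 near kept peaks, 0.67 near lost peaks and 0.01 over all genes. Near kept peaks 14.9% rose and near lost peaks 11.1%, with intervals (11.7 to 18.7 and 9.12 to 13.4) that overlap that of the inactive-EZH2 peaks. Without either *Ezh1/2* dKO library no gene of the 647 passed, and only 7 and 1 of all genes. Fewer genes were listed at 0 in the *Ezh1/2* dKO libraries (4.33% and 4.67% of all matched genes) than in WT (8.55% and 11.9%), and its part in the result was not tested.

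In *Ezh2* Y726D against WT, 39 rose (6.03%, 4.44 to 8.13), where 1.66% of all genes rose, and 9 fell (1.39%), where 1.06% fell and 2.72% passed in either direction. The median log2 fold change was 0.35, against 0.71 near kept peaks and 0.43 near lost peaks. Without *Ezh1/2* dKO replicate 1, *Ezh1/2* dKO replicate 2 or *Ezh2* Y726D replicate 2, 20, 21 and 21 rose. All libraries share 1 estimate of the spread, so leaving out a library of another line can move this count, and the cause of the drop was not tested. Both comparisons use the same WT libraries. Of 318 genes near a member with *Ezh2* Y726D H3K27ac, 26 rose (8.18%, 5.64 to 11.7), and of 329 near members without it 13 rose (3.95%, 2.32 to 6.64). HA-EZH1 divided the *Ezh1/2* dKO result in a similar way, with 56 of 341 (16.4%, 12.9 to 20.7) near a member with it and 28 of 306 (9.15%, 6.41 to 12.9) near members without. The intervals overlap in both cases, and the differences were not tested. The matched genes with and without H3K27ac also differed in WT level, with medians per kb of 6.94 and 6.91 against 1.12 and 1.21 in the WT libraries. The part of this level in the calls was not tested.

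In *Ezh2* KO against WT, where these regions had lost their SUZ12 peak, 3 of 647 genes passed, 2 higher (0.0937% of all genes) and 1 lower (0.31% of all genes), where 0.404% of all genes passed in either direction. The median log2 fold change was -0.08, against -0.01 over all genes and -0.51 near kept peaks. DESeq2 called 16 of the 647 (4 higher and 12 lower), edgeR 1, and leaving out single libraries gave 0 to 13.

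**Figure D4:**
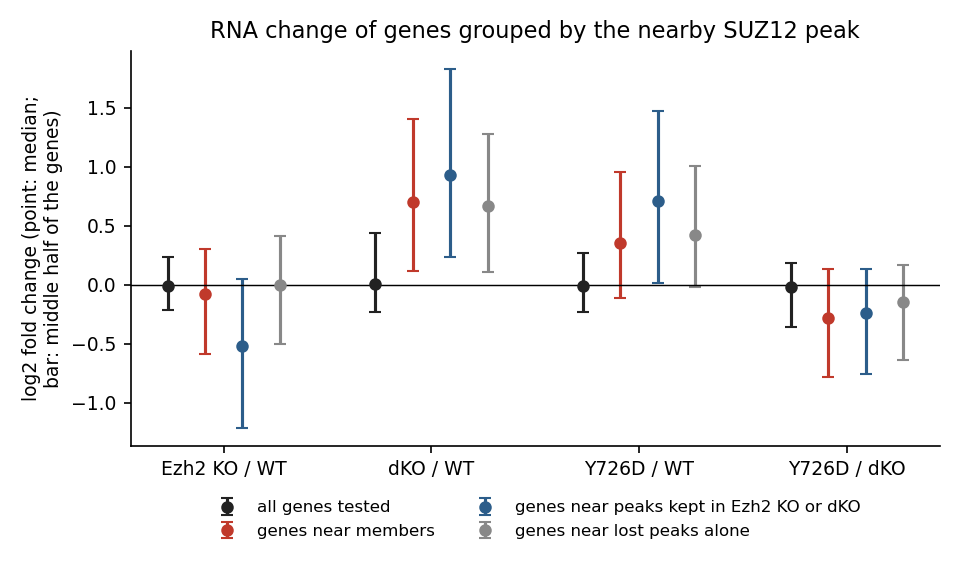
Points give the median log2 fold change and bars the middle 50% of genes for all genes tested (black), genes near inactive-EZH2 peaks (red), near kept peaks (blue) and near lost peaks alone (grey) in 4 comparisons. Genes near inactive-EZH2 peaks have a median of -0.08 against WT when *Ezh2* is deleted, 0.70 in *Ezh1/2* dKO ESCs and 0.35 with *Ezh2* Y726D.

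Markers of other cells moved in some lines. Of 6 primitive endoderm markers, 3 passed the filter and *Gata4* and *Dab2* rose in *Ezh1/2* dKO ESCs. Their summed level was 132 and 156 normalized counts there, 17.3 and 21.2 in WT, 9.41 and 27.1 in *Ezh2* KO and 60.6 and 44.7 in *Ezh2* Y726D ESCs, with *Sox17* and *Foxa2* below 3 in all libraries. Of the fibroblast markers *Thy1* rose in *Ezh1/2* dKO and *Ezh2* Y726D ESCs, and the list sums were 98.1 and 115 in the former, 88.3 and 86.1 in the latter and 12 and 4.81 in WT, mostly from *Thy1*. Of 3 markers of 2-cell-like cells, *Zscan4c* and *Zscan4d* fell in *Ezh2* KO and *Ezh2* Y726D ESCs, with sums of 20.9 and 14.5 and of 65.1 and 116, against 560 and 247 in WT and 526 and 733 in *Ezh1/2* dKO ESCs. The part of these cells in the changes near inactive-EZH2 peaks was not tested.

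The 2 genes that rose in *Ezh2* KO ESCs were among the 10 strongest members. *Tfap2a* was at 24.0 and 54.9 normalized counts in WT and rose to 170 and 179 in *Ezh2* KO, 153 and 121 in *Ezh1/2* dKO and 136 and 91.7 in *Ezh2* Y726D ESCs. Its log2 fold change in *Ezh2* KO was 2.23 (SE 0.38, adjusted p = 0.0758 by limma), and every mutant library was above both WT libraries. *Hmga2* was at 179 and 220 in WT, 427 and 464 in *Ezh2* KO, 438 and 370 in *Ezh1/2* dKO and 500 and 397 in *Ezh2* Y726D ESCs, with 1.16 (SE 0.19, adjusted p = 0.0568) in *Ezh2* KO. Both members had an H3K27ac peak in all 4 mutant lines. Both calls were lost without WT replicate 1 or without either *Ezh2* KO or *Ezh1/2* dKO library, and with the replicate block (adjusted p = 0.135 for *Tfap2a* and 0.115 for *Hmga2*). That of *Tfap2a* was also lost by edgeR (0.115) and without the filter on low values (0.146). *Cacna1s*, a muscle calcium channel subunit, fell in *Ezh2* KO ESCs, from 42.7 and 17.3 to 1.05 and 1.94 (adjusted p = 0.054 by limma), and was at 95.6 and 156 in *Ezh1/2* dKO ESCs. This call was lost in 10 of 15 alternatives, among them edgeR (adjusted p = 0.115) and the replicate block (0.109).

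Among the largest rises in *Ezh1/2* dKO ESCs were *Syt13*, a synaptotagmin, *Agpat9*, a glycerolipid acyltransferase, *Olig3*, *Mboat1*, a phospholipid acyltransferase, and *Tbx15*, a T-box factor of limb and craniofacial tissue. *Mboat1* was at 6.67 and 2.89 in WT, 8.36 and 10.6 in *Ezh2* KO, 80.8 and 72.8 in *Ezh1/2* dKO and 43.7 and 73.8 in *Ezh2* Y726D ESCs, with log2 fold changes of 3.83 (SE 0.49, adjusted p = 0.00959) and 3.41 (adjusted p = 0.0165) in the last 2. *Olig3* was listed at 0 in both WT libraries, at 16.5 and 14.2 in *Ezh1/2* dKO and at 16 and 24.6 in *Ezh2* Y726D ESCs, at least 4.45-fold and 5.90-fold higher than a floor of 3 reads per WT library. *Tbx15* was at 1.33 and 5.78 in WT, 20.9 and 15.5 in *Ezh2* KO, 41.2 and 47.1 in *Ezh1/2* dKO and 36.6 and 25.7 in *Ezh2* Y726D ESCs. *Syt13* reached 46.2 and 37.3 in *Ezh1/2* dKO and 14.3 and 16.8 in *Ezh2* Y726D ESCs from 0 and 1.93 in WT.

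*Lad1*, a basement membrane gene, and *Fgf15*, a secreted FGF, were further large rises in *Ezh2* Y726D ESCs. *Lad1* was at 25.3 and 9.63 in WT, 89.8 and 131 in *Ezh1/2* dKO and 149 and 202 in *Ezh2* Y726D ESCs (log2 fold change 3.38 in the last, SE 0.45, adjusted p = 0.0124 by limma). *Fgf15* was at 16 and 7.70 in WT, 24.0 and 25.2 in *Ezh2* KO, 33.8 and 35.5 in *Ezh1/2* dKO and 111 and 115 in *Ezh2* Y726D ESCs, where its log2 fold change was 3.23 (SE 0.41, adjusted p = 0.0113). Its 2 *Ezh2* Y726D libraries were above all others. The *Fgf15* and *Lad1* members had *Ezh2* Y726D H3K27ac and none in the other 3 lines.

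The 5 largest falls in *Ezh2* Y726D ESCs were *Col26a1*, *Stk33*, *Atf3*, *Gpr126* and *Elmo1*. *Col26a1*, a collagen gene, was at 167 and 134 in WT, 111 and 128 in *Ezh2* KO, 159 and 130 in *Ezh1/2* dKO and 22.3 and 5.59 in *Ezh2* Y726D ESCs, a log2 fold change of -3.60 (SE 0.50, adjusted p = 0.0153 by limma). *Gpr126*, an adhesion receptor of Schwann cells, was at 118.7 and 101.1 in WT, 181 and 287 in *Ezh2* KO, 213 and 207 in *Ezh1/2* dKO and 15.2 and 34.7 in *Ezh2* Y726D ESCs (-2.20, SE 0.38, adjusted p = 0.0324). In both, the *Ezh2* Y726D libraries were below all 6 others. *Elmo1*, which acts in engulfment and Rac activation, was at 133 and 162 in WT, 56.5 and 77.4 in *Ezh2* KO, 94.8 and 81.7 in *Ezh1/2* dKO and 41.9 and 38.0 in *Ezh2* Y726D ESCs. *Atf3*, a stress-response factor, was spread in WT (391 and 129) and at 63.3 and 12.3 in *Ezh2* Y726D ESCs (adjusted p = 0.0765 by limma). The *Atf3* call held in 8 alternatives and was lost in 7. *Stk33*, a kinase gene, was at 17.3 and 3.85 in WT, 41.2 and 37.3 in *Ezh1/2* dKO and 0 in both *Ezh2* Y726D libraries, so that *Ezh1/2* dKO was at least 13-fold and WT at least 3.51-fold higher than a floor of 3 reads per library. Its call against WT (adjusted p = 0.0565 by limma) held in 7 alternatives and was lost in 7.

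**Figure D5:**
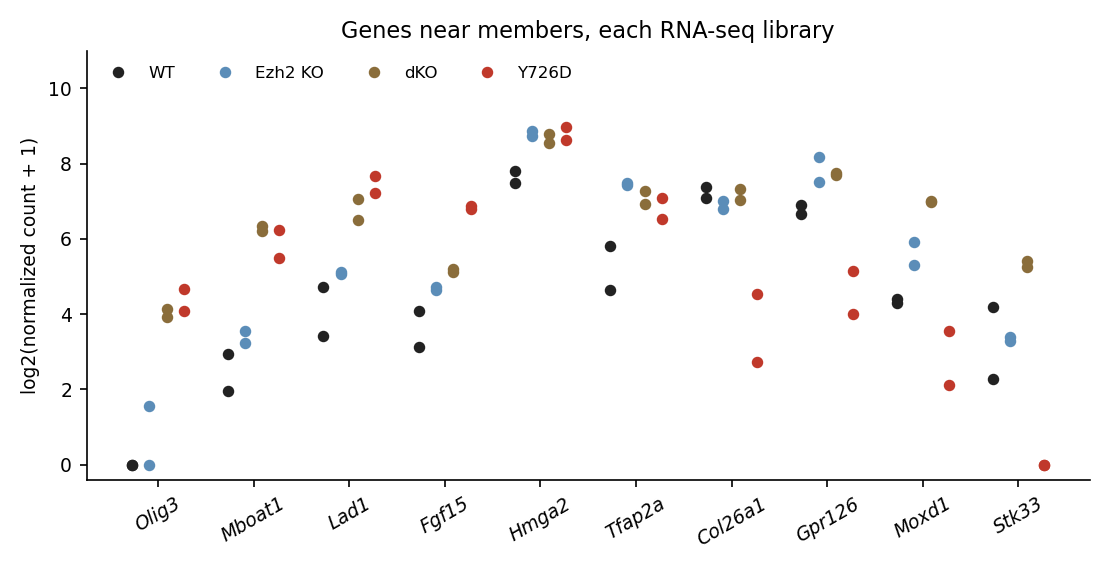
Each point is 1 RNA-seq library, on a scale of log2(normalized count + 1), for 10 genes near inactive-EZH2 peaks in the 4 lines. *Fgf15* is highest in *Ezh2* Y726D ESCs (111 and 115) and *Col26a1* and *Gpr126* are lowest there.

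*Ezh2* Y726D and *Ezh1/2* dKO ESCs both lack PRC2 activity and differ in the presence of the inactive enzyme. At inactive-EZH2 peaks SUZ12 was listed in the former and not in the latter. This was not particular to them, since the *Ezh1/2* dKO list held 317 SUZ12 peaks against 1052 shared peaks. Many shared peaks were thus in the same state, and genes near kept peaks are no contrast without that difference. Of the 647 genes, 18 were lower in *Ezh2* Y726D (2.78%, 1.77 to 4.35), where 1.49% of all genes were lower, and 1 was higher (0.155%), where 0.187% were higher and 1.68% passed in either direction. Near kept peaks 0.495% (0.136 to 1.79) and near lost peaks 1.67% (0.995 to 2.78) were lower. The median log2 difference was -0.28, against -0.24 near kept peaks, -0.15 near lost peaks and -0.02 over all genes. Without *Ezh1/2* dKO replicate 1 or *Ezh1/2* dKO replicate 2 none of the 647 passed, without *Ezh2* KO replicate 2 or *Ezh2* Y726D replicate 2 12 passed, and without *Ezh2* Y726D replicate 1 37 passed. With quantile normalization the median was -0.02, and 5 were higher and 17 lower.

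Of the genes lower in *Ezh2* Y726D than in *Ezh1/2* dKO ESCs, *Moxd1*, a monooxygenase gene, was at 18.7 and 20.2 in WT, 38.7 and 59.0 in *Ezh2* KO, 129 and 126 in *Ezh1/2* dKO and 10.7 and 3.36 in *Ezh2* Y726D ESCs. *Prkch*, a protein kinase C gene, was at 5.34 and 4.81, 1.05 and 1.94, 44.5 and 90.6, and 0 and 3.36 in the same order. Both rose in *Ezh1/2* dKO ESCs against WT (log2 fold changes of 2.65 and 3.41, adjusted p = 0.0329 and 0.0585 by limma) and neither passed in *Ezh2* Y726D against WT. *Defb25*, a beta-defensin gene, was at 13.2 and 16.9 in *Ezh1/2* dKO and 0.892 and 0 in *Ezh2* Y726D ESCs. *Ankrd33b* was the gene that was higher, at 101 and 123 in *Ezh1/2* dKO and 350 and 335 in *Ezh2* Y726D ESCs.

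Few genes of the developmental lists near inactive-EZH2 peaks passed the test, and those named here were chosen because they did. In *Ezh1/2* dKO ESCs *Hoxc4* was the only riser of 5 *Hox* genes tested, *Dbx2* was among the risers of the other homeobox genes, *Tbx15*, *Tbx5* and *Tbx20* rose of 6 Sox and T-box genes, and *Olig3* and *Msc* rose of 3 bHLH genes. The Wnt receptor gene *Fzd9* rose of 7 Wnt pathway genes, *Fgf15* of 2 FGF genes, *Bmp8b* of 6 BMP and TGF-beta genes, *Sema7a* and *Slit2* of 8 axon guidance genes and *Cacna1s* of 14 ion channel genes. In *Ezh2* Y726D ESCs *Tbx15*, *Olig3*, *Fgf15*, *Bmp8b* and *Sema7a* rose and no gene of these lists fell. *Bmp8b*, a BMP ligand, was at 12 and 10.6 in WT, 10.5 and 10.6 in *Ezh2* KO, 56.1 and 45.3 in *Ezh1/2* dKO and 33.9 and 90.6 in *Ezh2* Y726D ESCs. *Dbx2*, a homeobox gene of spinal cord interneurons, was at 5.34 and 7.70 in WT, 91.5 and 52.4 in *Ezh1/2* dKO and 90.9 and 19.0 in *Ezh2* Y726D ESCs. None of the 2 neurotransmitter receptor genes and 2 listed collagen and laminin genes tested passed in any comparison with WT. The lists were drawn from annotation symbols, and the collagen list did not hold *Col26a1*, which fell in *Ezh2* Y726D ESCs.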

How the data were processed

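For ChIP-seq and ATAC-seq, the authors used Bowtie (mm9) for alignment, Picard for duplicates and MACS2 for peaks, as their methods describe. The deposited lists give -log10 values and fold enrichment (ratio) per region, and every narrow peak listed was at or under a threshold of 1e-10. The HA lists give positions only. For RNA-seq, made by an unstranded protocol, the authors aligned with TopHat, counted with HTSeq-count and deposited counts divided by size factors (signal), so antisense partners cannot be told apart. All 100% of values came out as whole reads (tolerance 0.001), which served the count tests. The authors' columns of fold changes and p-values were not used.

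WT SUZ12 peaks were classed by overlap of at least 1 bp. Shares carry Wilson 95% intervals, which cover counting error only. Genes were assigned by a start site within 5 kb. RNA was tested with limma on log2(normalized count + 1), over all 8 libraries and 13872 genes with a mean of at least 5, with Benjamini-Hochberg adjustment (adjusted p under 0.1, absolute log2 fold change of at least 1). This scale understates changes of low genes. Of 22225 protein-coding genes, 15709 matched the table by symbol and 712 by a RefSeq synonym. In data simulated for *Ezh2* Y726D against WT, 142 of 200 genes changed 4-fold were recovered, with 11 false calls over 13872 genes. By replicate number, deviations within lines correlated at 0.22 to 0.29 between mutant lines and at -0.41 to -0.07 between WT and each mutant line. The main fit did not treat the libraries as paired, and whether a batch lies behind these signs was not tested.

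The members and gene lists were chosen with earlier results of these data known. Named were the 10 strongest members in WT and in *Ezh2* Y726D ESCs, the 2 strongest per gene list, up to 5 called rises and 5 falls per RNA comparison with no overlap between the lines, and the members and left-out peaks nearest the rule's edge. *Hox* clusters and called list genes were named after their values were seen. Alternatives changed the peak threshold, overlap, list length, distance, pseudocount, filter, scaling, test, replicate block and libraries. Other ChIP-seq targets and treatments were not analysed here. Tools were Python 3.11.15, numpy 2.4.6, pandas 2.3.3, scipy 1.17.1, matplotlib 3.10.9, pysam 0.24.0, R 4.3.3, limma 3.58.1, edgeR 4.0.16 and DESeq2 1.42.0.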

Additional observations from a re-analysis of the deposited data

Results flagged for a closer look

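Of the 19 genes near inactive-EZH2 peaks whose change from WT differed between *Ezh2* Y726D and *Ezh1/2* dKO ESCs by the limma test of that difference, 6 are given here, the rise and the 5 largest falls with no overlap between the lines. The difference in log2 change was 1.61 for *Ankrd33b* (adjusted p = 0.022 by limma), -5.33 for *Stk33* (0.0116), -4.95 for *Prkch* (0.022), -4.17 for *Moxd1* (0.00905), -3.55 for *Col26a1* (0.0166) and -3.53 for *Defb25* (0.0636). By this choice the 2 libraries of one line lay beyond both of the other in all 6. The call was lost in all 6 when either *Ezh1/2* dKO library was left out.
*Stk33* was at 0 in both *Ezh2* Y726D libraries, so its value depends on the pseudocount (-3.14 with a pseudocount of 5). In *Ezh1/2* dKO ESCs it was at least 13-fold higher than the floor of 3 reads per library. The *Defb25* call held in 10 alternatives and was lost in 4, among them DESeq2 (adjusted p = 0.18).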

How the results depend on the processing

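No named gene changed sign under an alternative, and the balance of *Ezh2* KO calls turned from 2 higher and 1 lower to 4 higher and 12 lower by DESeq2. With all lists limited to p of at most 1e-20, 256 of 3034 WT peaks were members, and their shares were 65.2% for R685C SUZ12, 59.4% for WT H3K27me3, 93.8% for *Ezh2* KO H3K27me3, 92.6% for HA-EZH1, 6.64% for *Ezh2* Y726D H3K27ac, 1.17% for *Ezh1/2* dKO H3K27ac and 81.3% for a start site within 5 kb. With 50% of the WT peak covered in *Ezh2* Y726D ESCs, 840 were members and WT H3K27me3 was at 78.2%. With lists of equal length, 554 were members, with R685C SUZ12 at 66.6%, WT H3K27me3 at 84.7%, *Ezh2* KO H3K27me3 at 87.4%, HA-EZH1 at 69.7% and *Ezh1/2* dKO H3K27ac at 10.7%. When a mark had to cover 50% of the member, the shares were 45.5%, 71.8%, 78.0%, 43.7%, 20.9% and 6.47% for R685C SUZ12, WT H3K27me3, *Ezh2* KO H3K27me3, HA-EZH1, *Ezh2* Y726D H3K27ac and *Ezh1/2* dKO H3K27ac. A start site lay within 1 kb in 74.6%. The causes of these shifts were not tested.

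Of the 647 genes, leaving out single libraries gave 20 to 40 rises and 5 to 16 falls in *Ezh2* Y726D, 0 to 102 rises and 0 to 3 falls in *Ezh1/2* dKO, 0 to 13 calls in *Ezh2* KO, and 0 to 37 between *Ezh2* Y726D and *Ezh1/2* dKO. Falls in *Ezh2* Y726D numbered 5 without WT replicate 1, either *Ezh1/2* dKO library or *Ezh2* Y726D replicate 2, and 16 without *Ezh2* Y726D replicate 1. The 3 falls in *Ezh1/2* dKO and the 13 calls in *Ezh2* KO came without WT replicate 2, and no call was left in *Ezh2* KO without WT replicate 1 or either library of *Ezh2* KO or *Ezh1/2* dKO. Rises in *Ezh1/2* dKO numbered 43 with quantile normalization, with 5 falls (89.6% of calls higher, against 100%) and a median log2 fold change of 0.28. Falls there numbered 1 without the filter, by edgeR, by DESeq2 and with genes near kept peaks added. *Ezh2* KO calls numbered 1 without the filter and by edgeR and 16 by DESeq2 (25% higher, against 66.7%). *Ezh2* Y726D against *Ezh1/2* dKO gave 29 calls with a pseudocount of 5 and 12 with a minimum mean of 20, and DESeq2 gave 7 higher and 19 lower (26.9% higher, against 5.26%). With the replicate block, calls numbered 39 and 9 in *Ezh2* Y726D, 74 and 0 in *Ezh1/2* dKO, 0 in *Ezh2* KO and 15 between the mutants. Of 24 named gene results, 17 lost their call without either *Ezh1/2* dKO library. With 2 libraries per line and 1 ChIP library per target, depth and clone cannot be told apart from the line.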

Other observations

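Inactive-EZH2 peaks were unevenly spread over chromosomes, by a description made after the values were seen. They made up 4 of 118 WT SUZ12 peaks on chromosome X (3.39%, 1.33 to 8.39) and 30 of 239 on chromosome 12 (12.6%, 8.94 to 17.4), and 19.8% to 33.6% on each other chromosome. On X 18 of the 118 WT peaks had a *Ezh2* Y726D SUZ12 peak and on chromosome 12 71 of 239, so fewer of these WT peaks were listed in that line at all. Within 10 kb of another member lay 168 of the 1375, in 80 groups, of which the largest, at *Irx4*, held 3. Within 50 kb lay 303, in 136 groups, the largest with 9 members at *Gm17649*.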
